A study of Mus musculus with 70 samples.

Results

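Tbr1, Eomes, Bcl11b, Bcl11a, Fezf2, Cux1, Cux2 and Zbtb18, transcription factor genes of cortical projection neurons, were followed through the chromatin interactions of their promoters. They are 8 of 20807 protein-coding genes on the autosomes and were taken by name as known factors of cortical neurons, with earlier results of these data known. An interaction was counted for a gene when 1 of its ends lay in a 10-kb bin that held an annotated transcription start site (TSS) of that gene. In the 12 pooled call sets, 2265 such interactions were counted, over 498 distinct pairs of a TSS bin and a partner bin.

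The study mapped interactions anchored at H3K4me3, a histone mark of active promoters, by PLAC-seq, in which proximity-ligated chromatin is enriched with an antibody before sequencing. Mouse embryos at E12.5 gave 4 neural tissues, which were FB (forebrain), MB (midbrain), HB (hindbrain) and the neural tube or NT, and 3 others, which were LM (limb), CF (craniofacial tissue) and the liver or LV. FB was also taken each day from E13.5 to E16.5 and at P0, the day of birth. Each of these 12 tissue-stages had 2 biological replicates, and CTCF ChIP-seq was made in the same tissue-stages. All tissue came from C57BL/6N mice, collected from pregnant females, with the sex of the embryos not assessed and no mutation and no treatment in any group. The tissues are whole dissected pieces, so an interaction in fewer cells and a weaker interaction in each cell cannot be told apart. The calls rest on the H3K4me3 peaks of each tissue-stage, so a pair called in a tissue may not have been testable in another. Which pairs could be tested in each tissue-stage was not examined. A missing call is therefore not evidence of a missing contact, also where pairs are given as called in FB alone.

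The replicate libraries held between 11396 and 63868 called interactions (median 25872). Both FB libraries at P0 lay at the upper end, with 63868 and 42973, and 1 of the LV libraries at the lower end. The pooled sets, which the authors had downsampled, held between 21945 in LV and 79677. Tissue labels were checked on lists of marker genes. Emx2 and Lhx2, forebrain patterning factors, had more interactions in FB than in MB, HB and NT, as given with the other cortical factors. The mesenchyme list summed to between 182.4 and 257.5 scaled interactions per LM or CF library and to at most 57.7 in any neural library. The liver and blood list summed to 15.5 and 25.0 in the LV libraries and to at most 7.7 in any other E12.5 library, while Alb and Hnf4a of that list were at 0 in LV as well.

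Projection neurons of the cortex are made in waves from progenitors of the dorsal forebrain, the deep layers first and the upper layers later. Eomes marks the intermediate progenitors of this lineage. Tbr1 is needed for the early-born, deep-layer neurons that project to the thalamus, whereas Fezf2 and Bcl11b specify the subcerebral neurons whose axons reach the brainstem and spinal cord. Bcl11a, a zinc finger factor related to Bcl11b, acts in deep-layer neurons and is also known as a repressor of fetal globin genes in blood. Cux1 and Cux2 are homeodomain factors of upper-layer neurons, and Zbtb18 is a zinc finger repressor that cortical neurons need for their differentiation. CTCF is a DNA-binding protein found at many loop anchors, where the strand of its motif sets the direction it faces.

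CTCF sites at named contacts of 4 of these genes are printed here because the promoters differed in whether such a site lay in the TSS bin or in the partner bin only. Each runs 5′ to 3′ on the strand given, on mm10, with the 19-base motif in capitals, and the coordinates are those of the capitals. Tbr1 had no CTCF peak in its TSS bin in any tissue-stage, and both of its sites lie in partner bins.
Tbr1 upstream partner, chr2:61643172-61643190, + strand: agtgtAGGCCACAGGGTGGGAGTGaaagg
Tbr1 downstream partner, chr2:62627913-62627931, − strand: agtatATTCCAGCAGAGGGCAGACgttgc
Fezf2 TSS bin, chr14:12341568-12341586, − strand: gcaccCTGCCGCGGGAGGGCGCGCccagc
Fezf2 upstream partner, chr14:12531344-12531362, − strand: cagtaATTCCAGAAGAGGGCAGCAgcaga
Zbtb18 upstream partner, chr1:176877903-176877921, + strand: ctgtgTGTCCTCTAGGGGGCACCAaagga
Zbtb18 downstream partner, chr1:177685105-177685123, − strand: cagtaTGGCCACAAGATGTCAGGTtaatc
Cux1 TSS bin, chr5:136567621-136567639, + strand: cggccCGGCCTCGAGGGGGCGCTGcgggg
Cux1 intragenic partner, chr5:136281495-136281513, + strand: cttttGTGACACAAGATGGCACCAgagcc
The motif estimated from the CTCF peaks themselves has the consensus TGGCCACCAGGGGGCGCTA, and the site 140 bases upstream of the Cux1 start equals it at 15 of 19 bases, the Tbr1 sites at 11 and 10.

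**Figure D1:**
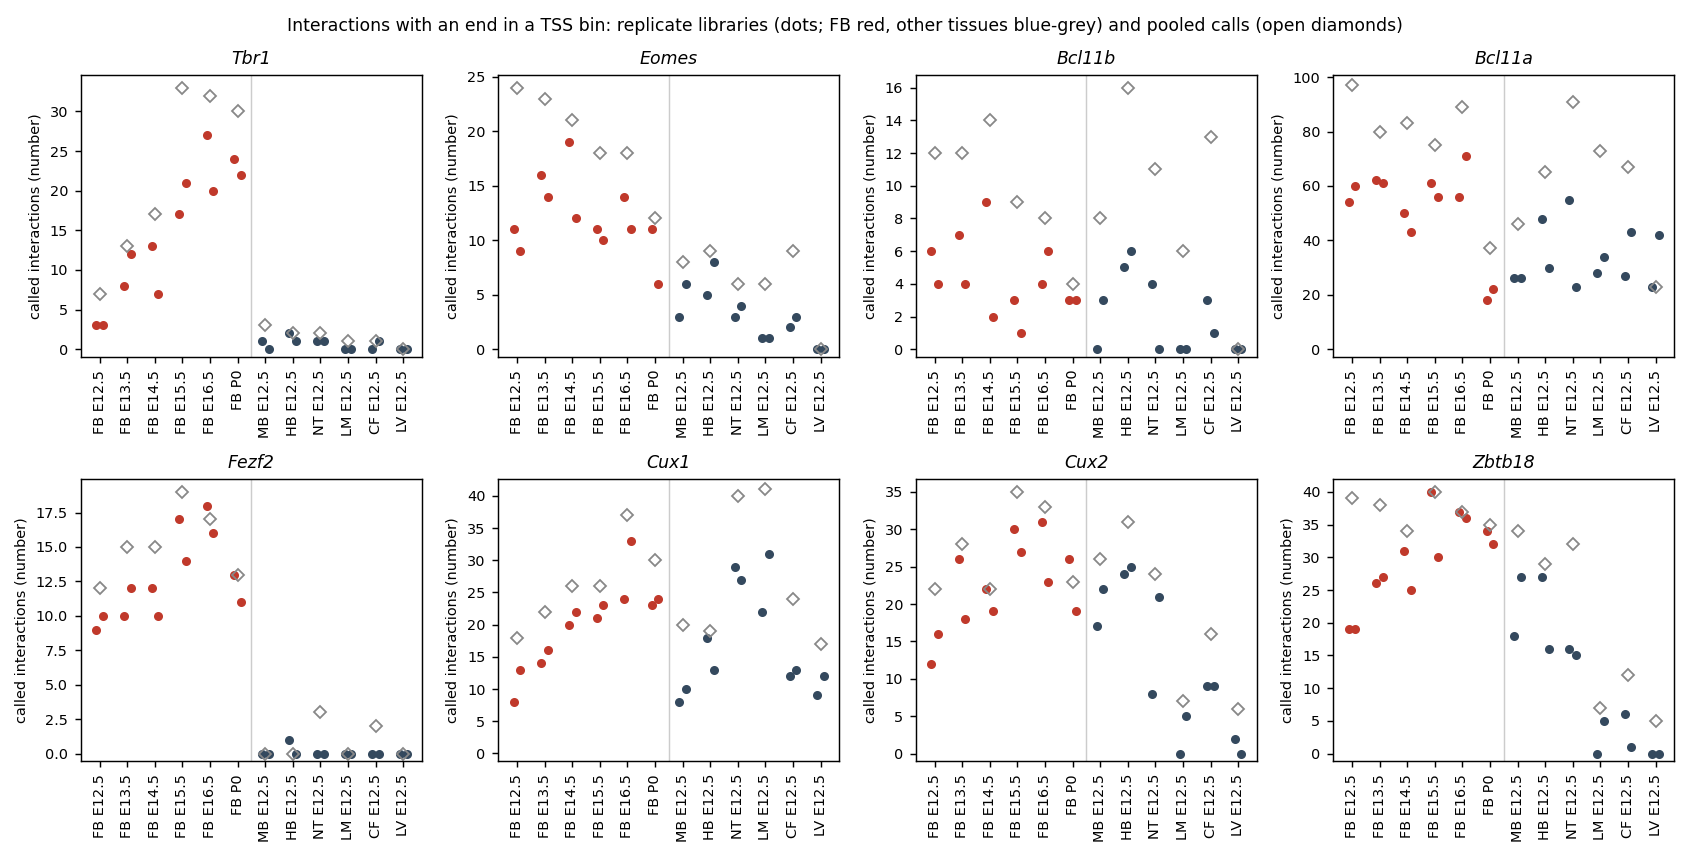
Number of called interactions with an end in a TSS bin (vertical axis) for each of the 8 genes in each tissue-stage (horizontal axis), with 1 dot per replicate library (red for FB, dark blue for other tissues) and an open diamond for the pooled, downsampled calls. Tbr1 climbs from 3 and 3 in FB at E12.5 to 24 and 22 at P0, and Fezf2 has at most 1 interaction in any library outside FB.

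Eomes, the progenitor factor (chr9:118478212-118486132, + strand), had 11 and 9 interactions in the FB libraries at E12.5. MB had 3 and 6, HB 5 and 8, NT 3 and 4, LM 1 and 1, CF 2 and 3, and both LV libraries had 0. Both FB libraries were above all others at this age. In later FB the libraries had 16 and 14 at E13.5, 19 and 12 at E14.5, 11 and 10 at E15.5, 14 and 11 at E16.5, and 11 and 6 at P0. Before any scaling, E13.5 and E14.5 thus lay above the range of E12.5 and 1 library at P0 lay below it. Scaled to the median total of the 24 libraries, the numbers were 15.46 and 14.49 at E12.5 and 13.41 and 13.34 at E13.5. They were 15 and 12.63 at E14.5, 9.04 and 7.28 at E15.5, 10.26 and 7.73 at E16.5, and 4.46 and 3.61 at P0. No rise after E12.5 was thus left, and all libraries of E13.5 and of E15.5 to P0 lay below both of E12.5.

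Tbr1, the deep-layer factor (chr2:61802930-61814114, + strand), had 3 and 3 interactions in FB at E12.5. FB then had 8 and 12 at E13.5, 13 and 7 at E14.5, 17 and 21 at E15.5, 27 and 20 at E16.5, and 24 and 22 at P0. Before any scaling, all 6 libraries from E15.5 on were thus above all 6 from E14.5 and before. In the other tissues no library had more than 2, and LM and LV had none.

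Fezf2 (chr14:12342094-12348189, − strand), of the subcerebral pathway, was called nearly only in FB. The FB libraries had 9 and 10 interactions at E12.5, 10 and 12 at E13.5 and 12 and 10 at E14.5. They had 17 and 14 at E15.5, 18 and 16 at E16.5, and 13 and 11 at P0. Of the 12 libraries of the other tissues, 1 HB library had 1 interaction and the others had 0. Whether the Fezf2 promoter could be tested in each of those tissues was not examined. The pooled calls added 3 in NT and 2 in CF, none of which a replicate library of those tissues called by itself.

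Bcl11b (chr12:107910403-108003602, − strand), which acts downstream of Fezf2 in those neurons, had few interactions. FB had 6 and 4 at E12.5, 7 and 4 at E13.5, 9 and 2 at E14.5, 3 and 1 at E15.5, 4 and 6 at E16.5, and 3 and 3 at P0. HB had 5 and 6, NT 4 and 0, MB 0 and 3, CF 3 and 1, and LM and LV none. In these unscaled numbers FB and the other neural tissues overlapped. Its paralog Bcl11a (chr11:24078056-24174123, + strand) has starts in 3 bins and had 54 and 60 interactions in FB at E12.5, between 43 and 71 in FB from E13.5 to E16.5, and 18 and 22 at P0. It had 26 and 26 in MB, 48 and 30 in HB, 55 and 23 in NT, 28 and 34 in LM, 27 and 43 in CF and 23 and 42 in LV, so it was called in every library. The Bcl11a bin at 24070001, with 4 of its starts, also holds a start of A830031A19Rik. Interactions of that bin cannot be assigned to Bcl11a alone.

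Cux1 (chr5:136248135-136567490, − strand), an upper-layer factor, was called in every library too, with 8 and 13 interactions in FB at E12.5 and 23 and 24 at P0. NT, with 29 and 27, and LM, with 22 and 31, had more than FB at E12.5. Cux2 (chr5:121856366-122050102, − strand) had 12 and 16 in FB at E12.5, 17 and 22 in MB, 24 and 25 in HB, 8 and 21 in NT, 0 and 5 in LM, 9 and 9 in CF and 2 and 0 in LV. Zbtb18 (chr1:177442351-177450764, + strand), the repressor, had 19 and 19 in FB at E12.5, 18 and 27 in MB, 27 and 16 in HB, and 16 and 15 in NT, against 0 and 5 in LM, 6 and 1 in CF and 0 and 0 in LV. Every neural library of Zbtb18 at E12.5 was thus above every other library of that age. Cux1 has 14 annotated starts in 4 bins and Cux2 has 11 in 8 bins, whereas Tbr1, Eomes, Bcl11b, Fezf2 and Zbtb18 each have all their starts in 1 bin, so numbers are compared between tissues and not between genes.

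The pooled interactions of the 8 genes were more often seen again in single libraries for FB than for the other tissues, as a description of call sets of unequal depth. In FB, 78.3% of 1404 pooled interactions were called in at least 1 replicate and 47.4% in both. In the other tissues these shares were 63.2% and 29.5% of 861. Fezf2 and Zbtb18 in FB had the highest shares in both replicates, with 70.3% and 62.3%, while Bcl11b in FB had 16.9%.

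The first comparison set the 8 neural libraries at E12.5 (FB, MB, HB, NT) against the 6 of LM, CF and LV. Interaction numbers were scaled to the same library total, and differences are on the scale of log2(scaled number + 1), tested with limma across 4725 genes with Benjamini-Hochberg adjustment. Zbtb18, Cux2, Eomes and Bcl11b had more interactions in the neural tissues, and Cux1 had fewer. Fezf2 also passed as higher, but nearly all its neural interactions were in FB. Eomes was highest in FB too, and its MB, HB and NT libraries overlapped those of CF in scaled number. The background was 21.1% of genes higher and 17.4% lower, beside 5 higher, Fezf2 included, and 1 lower of the 7 genes tested. The median of the 7 was 1.16, and that of all genes tested was −0.003.

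Zbtb18 differed by 3.01 ± 0.36 (SE), from a mean of 2.08 scaled interactions in the other tissues to 16.5 in the neural ones, at a limma adjusted p of 2.91e-05. It was the 1 gene of the 7 whose libraries did not overlap between the groups, beside 3.66% of all genes above without overlap and 1.67% below. Cux2 differed by 2.06 ± 0.38 (limma adjusted p = 0.00081) and Eomes by 1.51 ± 0.23 (limma adjusted p = 0.000233). These 3 genes kept the call when any 1 library was left out. Scaled to the median total of the 24 libraries, Eomes had 15.46 and 14.49 interactions in FB. It had 3.25 to 6.51 in MB, HB and NT, 2.87 and 4.09 in CF, 2.08 and 1.25 in LM, and 0 and 0 in LV. Whether Eomes differs between MB, HB and NT alone and the other tissues was not tested.

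Bcl11b differed by 1.16 ± 0.38 at a limma adjusted p of 0.0254, a call that was lost when any of 6 libraries was left out, MB replicate 2, HB replicate 2, LM replicate 1, CF replicate 2 or either of LV (largest adjusted p = 0.088). Fezf2 differed by 0.98 ± 0.20 (limma adjusted p = 0.00152), and since all 6 libraries of the other tissues were at 0, the size of this difference depends on the pseudocount. Its neural mean of 2.83 scaled interactions came from a mean of 11.04 in FB and 0.10 in MB, HB and NT. Fezf2 thus entered the test through FB, and its difference is one of FB and not of the neural tissues in general. With edgeR's quasi-likelihood test on the numbers, its adjusted p was 1. Cux1 was lower in the neural tissues by −0.65 ± 0.17 (limma adjusted p = 0.00854), but the difference was −0.09 without scaling, and with DESeq2 size factors it was −0.36 at an adjusted p of 0.0758. Bcl11a, at −0.35 ± 0.22, did not pass (limma adjusted p = 0.217), except with LV replicate 1 left out, at −0.56 (limma adjusted p = 0.0465). Tbr1 had a mean under 1 interaction and was not tested.

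**Figure D2:**
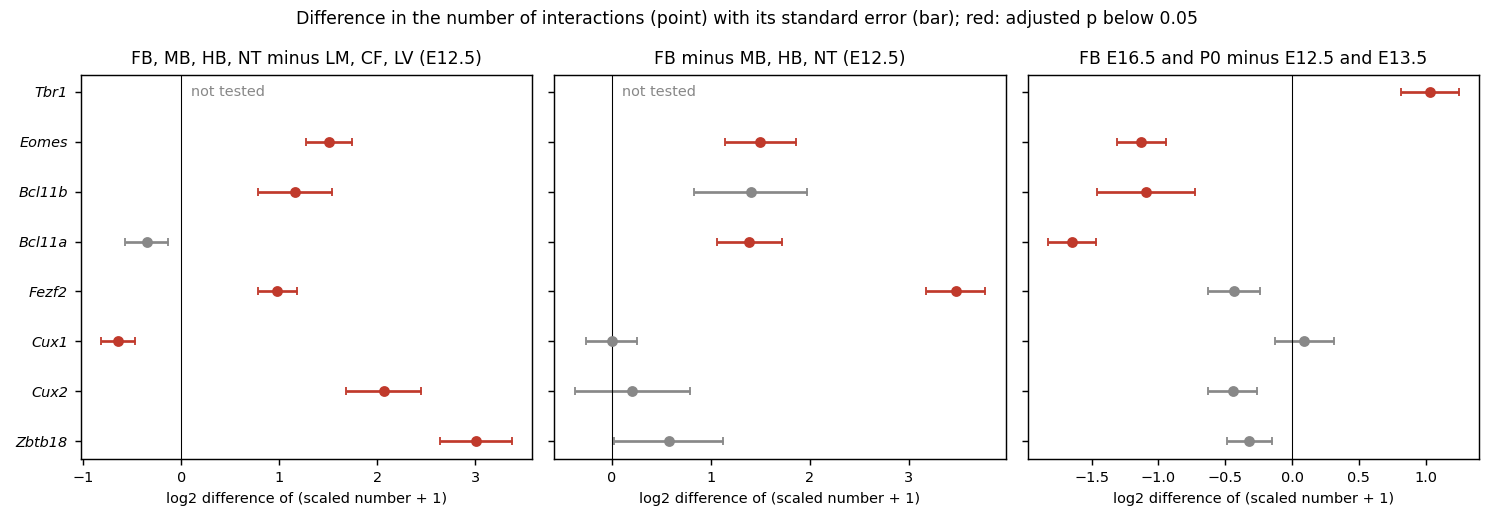
Difference in the number of interactions per gene, in log2(scaled number + 1), for the 3 comparisons (panels), with the limma estimate as a point and its standard error as a bar. Red points passed an adjusted p of 0.05, among them Zbtb18 at 3.01 in the neural tissues, Fezf2 at 3.47 in FB and Tbr1 at 1.03 in late FB.

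The second comparison, FB against MB, HB and NT at E12.5, asked which of the genes differ between the forebrain and the other neural tissues. Fezf2, Eomes and Bcl11a had more interactions in FB and none had fewer. The background was 0.910% of 4725 genes higher and 2.22% lower. Fezf2, Bcl11a, Eomes, Bcl11b and Zbtb18, 5 of the 7 genes tested, had both FB libraries above all 6 others in scaled number and none had them below, beside 7.30% of all genes above and 8.30% below. In unscaled numbers Bcl11b, Zbtb18 and Bcl11a overlapped between the groups. The median of the 7 was 1.39, against −0.11 over all genes.

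Fezf2 differed by 3.47 ± 0.30 (limma adjusted p = 6.49e-05), from a mean of 0.10 scaled interactions to 11.04, and passed without any 1 of the libraries. Because 5 of the 6 other neural libraries were at 0, its size depends on the pseudocount, and it was 4.33 with 0.5 in place of 1 (limma adjusted p = 0.000223). It entered the test through its numbers in FB, and it also passed without the filter (limma adjusted p = 0.0012). Eomes differed by 1.501 ± 0.354 and Bcl11a by 1.39 ± 0.33, both at a limma adjusted p of 0.0368. The call of Eomes was lost when any of 6 libraries was left out (either of FB or HB, MB replicate 1 or NT replicate 1), with adjusted p up to 0.199. That of Bcl11a was lost when any of 9 was (either of FB, MB, HB or CF, or NT replicate 2), with adjusted p up to 0.294. Without scaling, neither passed. Bcl11b, at 1.40 ± 0.57, missed the threshold (limma adjusted p = 0.223), as did Zbtb18 at 0.58 ± 0.55 (limma adjusted p = 0.649). Cux1 and Cux2 lay at 0.00 ± 0.26 and 0.21 ± 0.58, with FB and the other neural libraries overlapping.

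The third comparison set FB at E16.5 and P0 against FB at E12.5 and E13.5, with 4 libraries on each side. Tbr1 gained interactions, while Bcl11a, Eomes and Bcl11b had fewer for their library size. The background was 14.3% of 5832 genes higher and 8.16% lower, beside 1 higher and 3 lower of the 8 genes. The median of the 8 was −0.44, and that of all genes was 0.21.

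Tbr1 rose by 1.03 ± 0.22 (limma adjusted p = 0.00502), from a mean of 8.44 scaled interactions to 17.6. The rise passed without any 1 library, and with both P0 libraries left out it was 1.29 at an adjusted p of 0.0166. Its unscaled numbers were between 3 and 12 in the early libraries and between 20 and 27 in the late ones, although the scaled numbers of the groups overlapped.

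Bcl11a fell by 1.65 ± 0.18 on the log2 scale (limma adjusted p = 7.06e-05), Eomes by 1.13 ± 0.19 (limma adjusted p = 0.00107) and Bcl11b by 1.09 ± 0.37 (limma adjusted p = 0.0455). The Bcl11b call was lost when any of 7 libraries of the contrast was left out, all but FB E12.5 replicate 2 (largest adjusted p = 0.14). Bcl11a and Eomes had all 4 late libraries below all 4 early ones in scaled number, beside 7.66% of all genes, and none of the 8 had them above, beside 10.0%. The P0 libraries hold the most interactions in all, so the scaling acts most on them. With P0 left out, the differences were −0.59 for Bcl11a (adjusted p = 0.0585), −0.62 for Eomes (adjusted p = 0.12) and −0.63 for Bcl11b (adjusted p = 0.45) in the same limma fit. Without scaling, Bcl11a still passed at −0.72 (adjusted p = 0.00084), but Eomes was at −0.25 (adjusted p = 0.35) and Bcl11b at −0.33 (adjusted p = 0.5). The part of library size in these values was not tested.

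Cux2 at −0.45, Fezf2 at −0.44, Zbtb18 at −0.32 and Cux1 at 0.09 did not pass in the third comparison, except Cux2 with FB E12.5 replicate 1 left out, at −0.59 (limma adjusted p = 0.0378). Without scaling, Zbtb18 was higher in late FB by 0.61 (limma adjusted p = 0.00406), Cux1 by 1.00 (limma adjusted p = 0.0011) and Cux2 by 0.47 (limma adjusted p = 0.0491), while the median of all genes moved to 0.89. Genes of forebrain interneurons and the ventral forebrain moved in the same direction as Eomes and Bcl11a: of 16 tested, 11 were lower in late FB and 0 higher, beside 8.16% and 14.3% of all genes. That list summed to between 284.9 and 415.2 scaled interactions in the early libraries and between 154.3 and 241.9 in the late ones, with no gene at 0, and its part in the result was not tested.

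Besides their number, the partners of each promoter were located. The promoters differed in reach and in direction. The side of a partner was taken from the TSS bin of its pair. All 33 partner bins of Eomes lay upstream of that bin and all 180 pairs of Bcl11a lay downstream. Upstream pairs made 7.1% of those of Bcl11b, 30.2% of Tbr1, 61.5% of Fezf2 and 77.6% of Zbtb18. For Cux1 and Cux2 the shares were 44.2% and 59.3%, but most of their TSS bins lie inside the gene. A pair counted as upstream can thus stay within it, such as that of Cux2 from 121890001 to 122050001. The shares of Cux1 and Cux2 are therefore not comparable with those of genes with all starts in the same bin. For Cux1 and Cux2, 53.8% and 63.0% of the pairs stayed within the gene itself. Tbr1, Eomes, Fezf2 and Zbtb18 are shorter than the 20 kb at which calls begin and could have none.

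**Figure D3:**
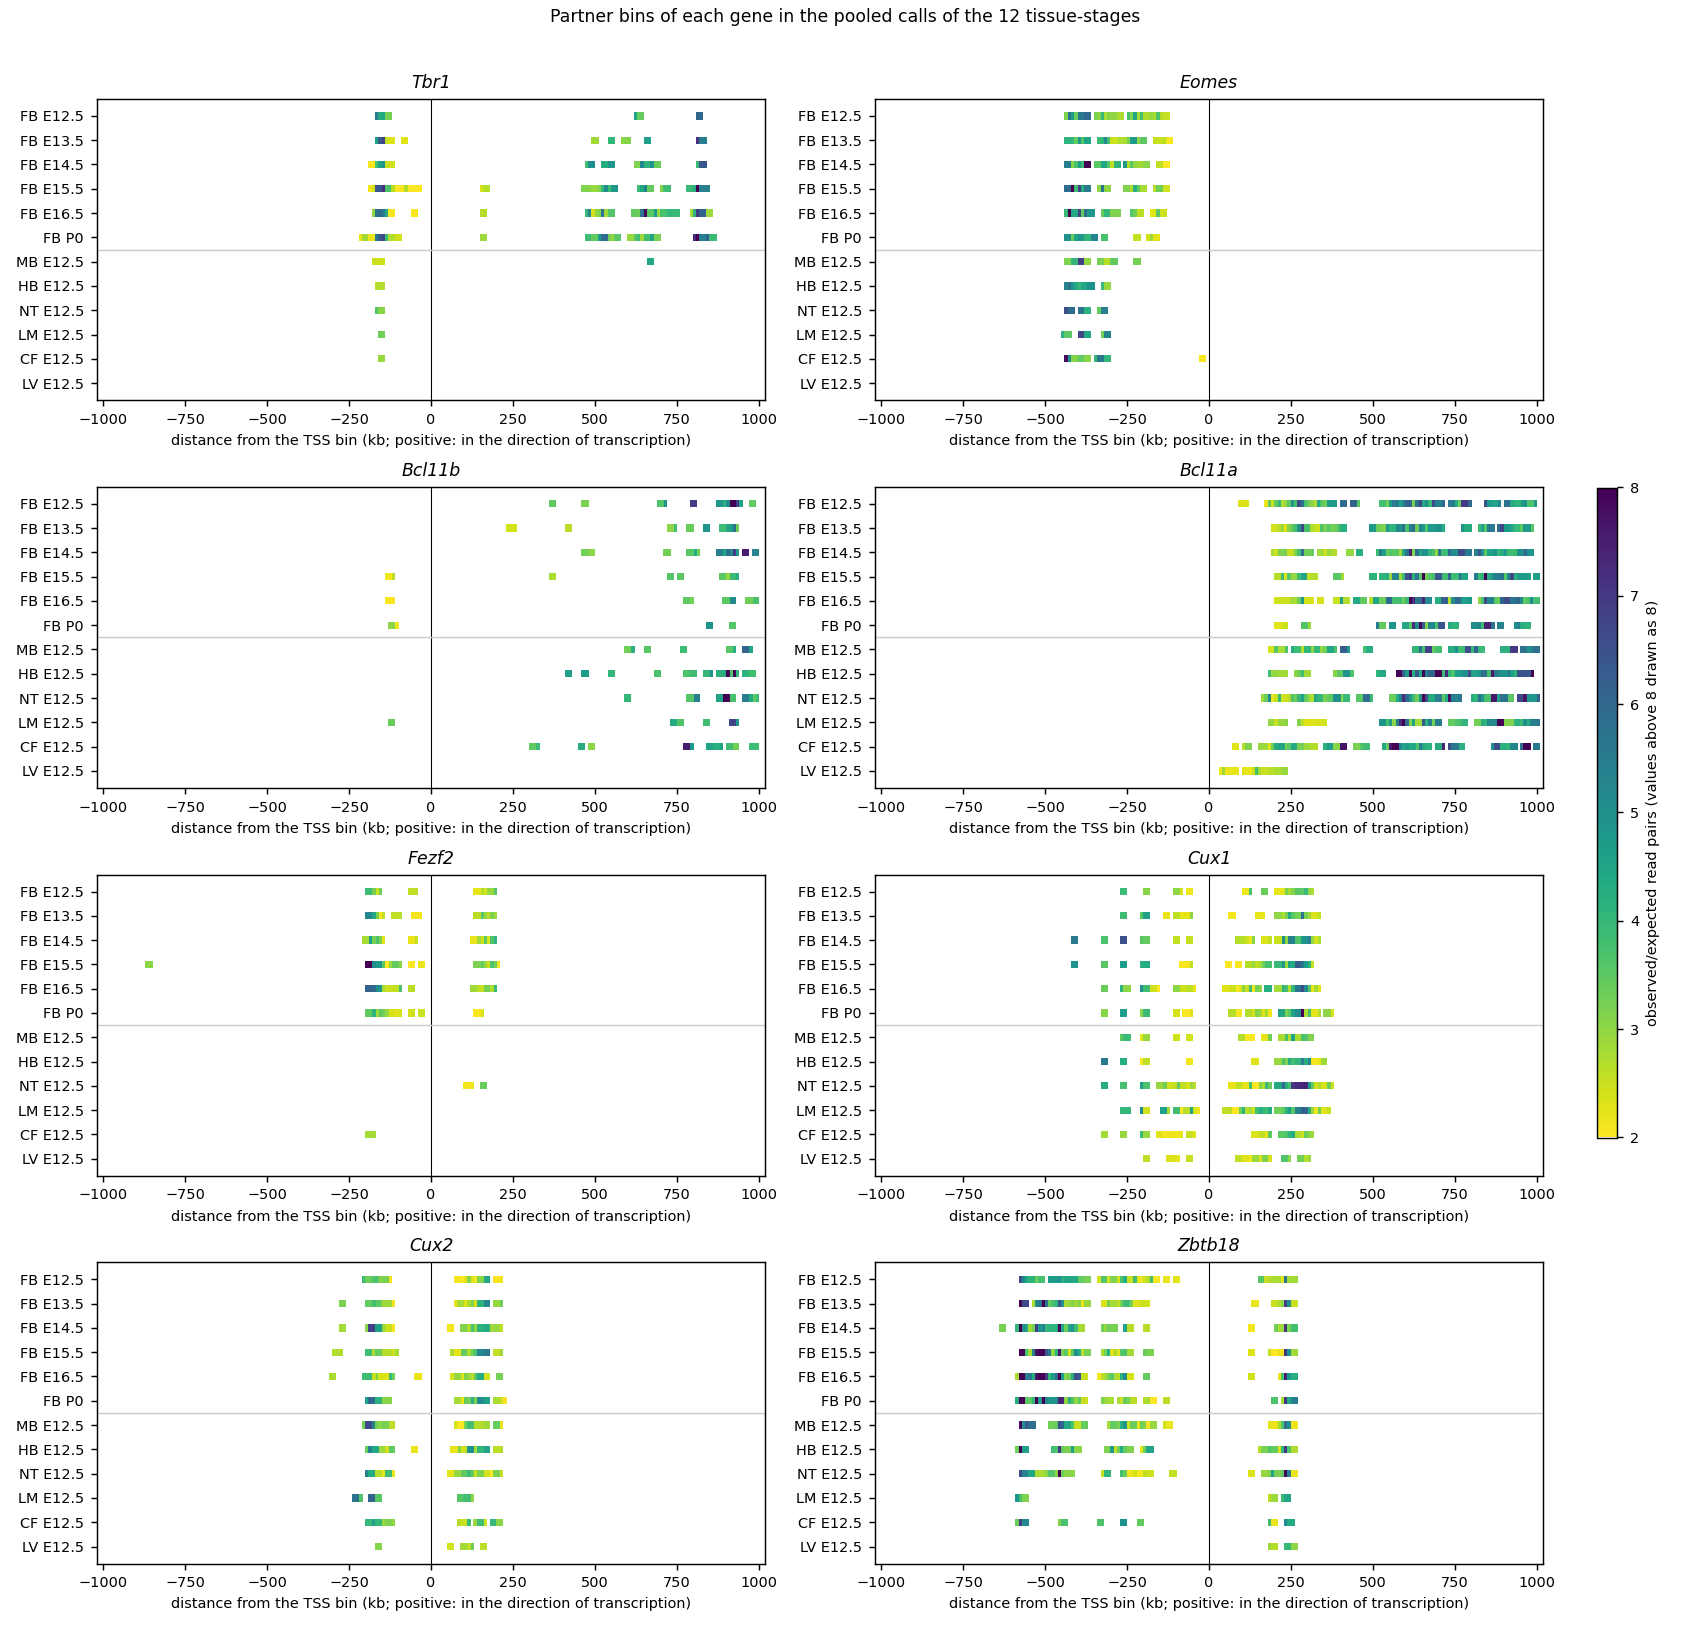
Partner bins of each gene (panels) in the pooled calls of the 12 tissue-stages (rows), by distance from the TSS bin in kb (horizontal axis, positive in the direction of transcription) and by the ratio of observed to expected read pairs (colour, values above 8 drawn as 8). Tbr1 shows the downstream partners up to 860 kb away in FB, and Bcl11a in LV has no partner beyond 230 kb.

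The Tbr1 promoter had 53 partner bins. The 1 most often called, chr2:61650001-61660000, 150 kb upstream in the body of Tank, was called in 11 tissue-stages, all but LV, with 2.44 to 6.39 times the expected read pairs. Of the 53, 49 were called in FB alone, and 20 of these in at least 3 FB stages. The other tissues were measured at E12.5 only, so tissue and stage cannot be told apart for the 44 of the 49 that FB did not call at E12.5. At that age FB had 7 pairs, 5 of which no other tissue called. The bin beside it at chr2:61660001-61670000, 140 kb upstream, was called in all 6 FB stages and in both replicates of each, at 4.39 in E12.5, 6.83 in E13.5, 4.95 in E14.5, 7.23 in E15.5, 5.58 in E16.5 and 6.74 in P0 times the expected.

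On the other side, Tbr1 reached a bin 820 kb downstream, chr2:62620001-62630000 by Ifih1, in all 6 FB stages and in no other tissue. At E12.5, the only age of the other tissues, it was called at 6.03 times the expected with 19 read pairs, but in neither replicate. At E15.5 it was called at 9.49 with 48 read pairs, and in both replicates. Between the gene and this bin lie partners over Slc4a10, Dpp4 and Gcg, 480 to 670 kb downstream. Of these, the stretch from 62280001 to 62310000 was called from E13.5 on. The median distance of the pooled Tbr1 interactions was accordingly 160 kb in FB at E12.5 and between 500 and 585 kb at every later stage.

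Eomes reached mostly upstream bins between 120 kb and 440 kb away, with 1 contact at 20 kb in CF. The bin chr9:118040001-118050000, at the Azi2 promoter 430 kb away, and a bin 390 kb away in Cmc1 were called in all tissue-stages but LV. The nearer bins were more restricted: chr9:118240001-118250000 (230 kb) and chr9:118320001-118330000 (150 kb) were called in the 5 FB stages from E12.5 to E16.5 and in no other tissue, and neither was called at P0. Both replicates called the bin at 230 kb at E13.5 and E16.5, and the bin at 150 kb at E16.5 only. At the other stages of these 5, only 1 replicate called each bin. Of the 33 partner bins of Eomes, 17 were called in FB alone, 12 of them at E12.5.

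Fezf2 had 26 partner bins, 21 of them in FB alone, 9 of these at E12.5, and 12 of the 21 in at least 3 FB stages. The bin chr14:12530001-12540000, 190 kb upstream in Cadps, was called in all 6 FB stages at 3.46 to 8.29 times the expected and in CF at 2.81, where neither replicate called it. Bins 160 and 170 kb upstream, also in Cadps, were called in all 6 FB stages only. At E12.5 the bin at 160 kb was called in neither replicate and the bin at 170 kb in replicate 1 only. On the other side, bins 140 to 190 kb downstream in Ptprg were called in FB, and 1 of them, 160 kb away, in the pooled NT calls.

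Bcl11b reached far into the region downstream. Its most often called partner, chr12:107080001-107090000 at 920 kb, was called in 10 tissue-stages with 10 to 31 read pairs, but in only 10 of the 24 replicate libraries. Of its 42 partner bins, 16 were called in 1 tissue-stage only, and no bin was called in at least 3 FB stages and nowhere else. Bcl11a likewise contacted the region downstream of it, up to the limit of 1 Mb between bins, with bins 290, 660 and 670 kb away called in all tissue-stages but LV. The bin chr11:24740001-24750000, at 660 kb, was called in 20 replicate libraries at 3.75 to 13.04 times the expected. In LV the pooled calls of Bcl11a ended at 230 kb with a median of 140 kb, against medians of 560 to 680 kb elsewhere, beside library medians over all interactions of 170 and 160 kb in LV and 230 to 300 kb in the others.

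Cux1 and Cux2 held the contacts shared most widely. Cux1 had 6 of its 52 pairs in all 12 tissue-stages, among them chr5:136280001-136290000, 280 kb downstream inside the gene, which every one of the 24 replicate libraries called. Cux2 had 2 of its 54 pairs in all 12. Both joined the bin of its outermost annotated start, at 122050001, to places within the gene, 110 and 160 kb away. The bin 160 kb away, at 121890001, holds another annotated start of Cux2.

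Zbtb18 had 1 pair in all 12 tissue-stages, to chr1:177680001-177690000, 240 kb downstream. It was called at 5.72 times the expected in FB at E12.5, at 7.85 in NT and at 3.93 in LV, with 22 to 160 read pairs. A bin 570 kb upstream in Sdccag8, chr1:176870001-176880000, was called in all but LV, at 3.76 in LM and at 10.6 in FB at E16.5. The bin 500 kb upstream, also in Sdccag8, was called in FB from E13.5 on at 5.28 to 9.45. No other tissue was measured at those stages, and none, FB included, called it at E12.5.

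The partners over FB stages were compared between E12.5 or E13.5 and E16.5 or P0 in the pooled calls. Tbr1 had 15 pairs in the early stages and 42 in the late ones. Of these, 12 were shared, which is 80.0% of the early and 28.6% of the late pairs. Bcl11b shared 3 pairs, 15.0% of its 20 early and 30.0% of its 10 late pairs. In the other 6 genes the shared pairs made 63.5% (Bcl11a) to 92.3% (Cux1) of the early and 58.5% (Cux1) to 92.9% (Zbtb18) of the late ones.

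**Figure D4:**
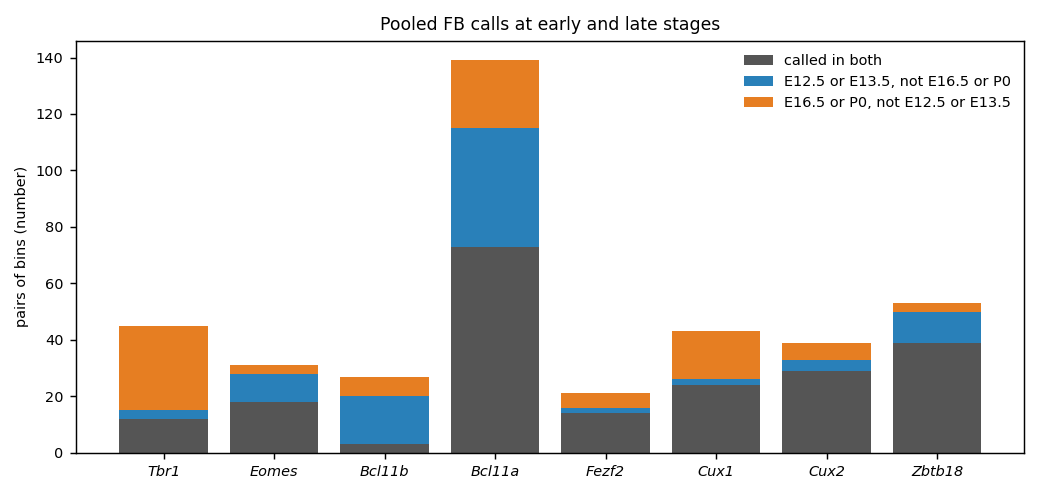
Number of distinct pairs of bins per gene in the pooled FB calls (vertical axis), split into those called both at E12.5 or E13.5 and at E16.5 or P0 (grey), only early (blue) and only late (orange). Tbr1 has 30 late and 3 early pairs that are not shared, and Bcl11a has 42 early and 24 late ones.

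Distances were also tested over the FB libraries, as the log2 of each gene's median distance, over 2570 genes with an interaction in all 12 libraries. Bcl11b was shorter by −1.54 ± 0.07 in late FB (limma adjusted p = 5.71e-05), with a mean of the library medians of 465 kb late against 902 kb early. Cux1 was shorter by −0.37 ± 0.07 (limma adjusted p = 0.0321), 194 against 251 kb. The background was 2.68% of genes longer and 1.25% shorter. With P0 left out, neither passed, at −0.17 (limma adjusted p = 0.56) for Bcl11b and −0.46 (limma adjusted p = 0.106) for Cux1, and the Cux1 call was lost when any of 8 libraries was left out (either of E12.5, E15.5 or P0, E13.5 replicate 1 or E16.5 replicate 2), with adjusted p up to 0.0821. Bcl11b at P0 had 3 interactions per library, so its medians there rest on few calls.

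Tbr1 was at 1.37 ± 0.45 in this test, 562 kb late against 265 kb early, and did not pass (limma adjusted p = 0.162). With the mean distance in place of the median, its difference of 1.01 passed (limma adjusted p = 0.0027). Eomes at 0.27 (limma adjusted p = 0.0522), Fezf2 at −0.29, Zbtb18 at 0.24, Bcl11a at 0.31 and Cux2 at −0.07 did not pass. With 1 library left out, Eomes passed at 0.33 without E13.5 replicate 2, Bcl11a at 0.47 without E12.5 replicate 1 and Fezf2 at −0.38 without P0 replicate 2.

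CTCF peaks with a motif were then placed in the bins of the same tissue-stage. Seen from each TSS-bin end, the 8 genes had CTCF in the TSS bin in 77.6% of 2390 interactions and in the partner bin in 25.3% (95% exact interval 23.5 to 27.1%). Bcl11a gave 827 of these, and without it the shares of the other 7 genes were 65.7% and 34.9% of 1563. Over all promoters these shares were 60.8% and 44.9% of 657163 interactions, with 41.5 to 51.1% over the tissue-stages for the partner bin, against 19.9 to 31.3% for the 8 genes. The same bins recur over tissue-stages, so the interval covers counting error only, and no test was made with 1 peak list per tissue-stage.

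The genes fell far apart at the TSS bin. Tbr1 had CTCF there in 0 of 141 interactions of its single TSS bin, also when peaks without a motif were counted, while Eomes, Bcl11b and Bcl11a had it in 100% of theirs. Fezf2 had it in 94.8%, Cux1 in 89.2%, Cux2 in 58.5% and Zbtb18 in 41.2%. For Zbtb18 the value rested on weak sites. One 475 bases upstream of the gene start was a peak in NT and in FB at E14.5 and P0, with 4.4 to 4.9-fold enrichment over input, and with the second deposited list of peaks the share was 19.3%. The Fezf2 site printed above lies in the TSS bin but 6.6 kb past the start, beyond the far end of the gene. It was a peak in the 6 FB stages and in MB, with 3.7 to 8.7-fold enrichment.

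At the partner bins the shares ran from 7.1% in Bcl11a and 15.9% in Bcl11b to 39.7% in Cux1 and 48.1% in Cux2, with 24.3% in Zbtb18, 27.1% in Fezf2, 33.1% in Eomes and 36.9% in Tbr1. The Tbr1 partners 160 kb upstream and 820 kb downstream held CTCF in all 12 tissue-stages, including those in which the interaction was not called. Their printed sites lie on the + and the − strand, facing each other across the gene, with 16.9 to 45.5-fold and 14.6 to 29.7-fold enrichment. The same arrangement held for the printed Zbtb18 partners. By contrast, the FB-only Eomes partners at 230 and 150 kb held no CTCF peak with a motif in any tissue-stage.

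**Figure D5:**
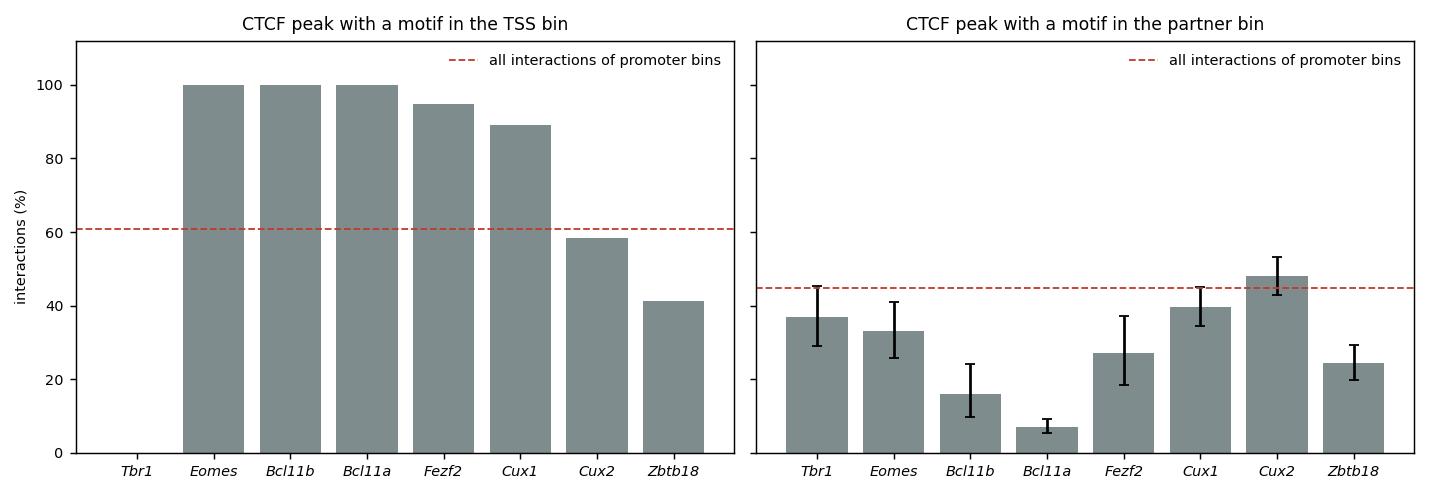
Share of the pooled interactions of each gene, in percent, with a CTCF peak holding a motif in the TSS bin (left) and in the partner bin (right, with 95% exact intervals for counting error as bars) and the share over all promoters as a dashed line. Tbr1 is at 0 on the left, and Bcl11a is at 100 on the left and at 7.1 on the right.

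Where both bins held a motif, the share in which a pair of motifs faced each other was 56.7% over all promoters. It was 69.5% of 105 interactions for Cux2, 56.0% of 25 for Fezf2, 55.6% of 18 for Bcl11b, 43.1% of 51 for Eomes, 39.4% of 33 for Zbtb18, 35.0% of 103 for Cux1 and 13.6% of 59 for Bcl11a. Few of the interactions of Bcl11b, Fezf2 and Zbtb18 could be counted here, and none of Tbr1.

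Other factors of the excitatory cortical lineage moved in some of the same comparisons. Of 35 such genes, 27 were tested at E12.5, and 20 had more interactions in the neural tissues and 0 fewer, beside 21.1% and 17.4% of all genes. Pax6, a factor of dorsal progenitors, differed by 3.82 (limma adjusted p = 1.09e-09) and Pou3f2, an upper-layer POU factor, by 4.29 (limma adjusted p = 3.76e-09). Pou3f2 had a mean of 0.18 scaled interactions in LM, CF and LV, and Emx1 and Neurod1, also among the 20, were at 0 there. These genes entered the test through the neural tissues, and the size of their differences depends on the pseudocount. Between FB and the other neural tissues 5 were higher, among them Lhx2 by 1.92 and Emx2 by 1.77, and Neurod1 was lower by −1.79 (limma adjusted p = 0.00945). Neurod1 was at 0 in FB, so the size of this difference depends on the pseudocount too. In late against early FB, 10 of 32 were higher and 12 lower, beside 14.3% and 8.16% of all genes. Sox5, a factor of deep-layer neurons, rose by 1.68 (limma adjusted p = 7.32e-05), whereas Pax6 fell by 1.77 and Emx2 by 1.56 on the log2 scale.

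The interneuron list had 3 of 15 genes higher in FB than in the other neural tissues, Dlx1 by 3.66, Dlx2 by 2.78 and Dlx6 by 1.41, beside 0.910% of all genes. Of the mesenchyme list, 7 of 12 were lower in the neural tissues, beside 17.4% of all genes, among them Prrx1 by −3.28 and Hand2 by −2.65. Of the 7, Prrx1, Col1a2 and Alx1 were at 0 in all neural libraries. They entered the test through LM and CF, and the size of their differences depends on the pseudocount. Of the liver and blood list, 1 gene of 10 reached the minimum for a test.

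Across the 24 replicate libraries and 5501 genes, the genes on other chromosomes with the most similar numbers were listed by Pearson's r, as a description over libraries that share tissue and depth. Tbr1 was most like Kcnn2 (0.93) and Fezf2 (0.92), and Fezf2 most like Celf2 (0.95) and Tbr1 (0.92). Cux2 was most like Sox1 (0.96) and Gad1 (0.94), Zbtb18 like Fam8a1 and Nsg2 (0.95 each) and Eomes like Sp9 (0.90). Bcl11b, with r of 0.77 to Ppp1r3e and Nr2f1, had the lowest likeness of the 8, below Bcl11a with 0.83 to Sox6 and Cux1 with 0.87 to Trib1.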

How the data were processed

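PLAC-seq libraries (24, H3K4me3) and CTCF ChIP-seq libraries (23) were used in processed form. For PLAC-seq the authors aligned reads to mm10 (BWA), removed duplicates and called interactions with MAPS, a Poisson regression on pairs of 10-kb bins with an H3K4me3 peak at 1 or both ends. The deposited values are counts of read pairs, expected counts from the regression and the false discovery rate of each call (a p-value adjusted over all pairs). The deposited calls lie between 20 kb and 1 Mb on the 19 autosomes, with FDR under 1% and at least 2 times the expected pairs. Pairs that were not called have no value, and a pair without an H3K4me3 peak at either end was not tested by the authors. The peaks were those of the same tissue-stage, and the paper states that a pair might therefore not be testable in every tissue. To compare tissues, the authors called interactions again with the union of the peaks. Those calls were not used here. The authors called the replicates at full depth, and pooled both replicates with downsampling for the pooled sets. For CTCF, the authors deposited MACS2 peaks with a fold enrichment (a ratio over input), in a pair of lists per tissue-stage. The first list was used, and how the lists differ is not given in the sources used here. By the labels, CTCF in LV and in E14.5 FB was measured in technical replicates, and P0 FB has 1 library.

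TSSs came from GENCODE M21 on mm10 (the authors used another release). Numbers per gene and library were scaled to the median total of the libraries fitted, and log2(scaled number + 1) was fitted with limma 3.58.1 (R 4.3.3) with a trend, 1 mean per tissue-stage, keeping genes whose mean scaled number was 1 or more, with Benjamini-Hochberg adjustment at 0.05. edgeR 4.0.16 and DESeq2 1.42.0 served as alternatives. The scripts were tested on simulated data. CTCF motifs (19 bases, p of 0.0001 per position) were matched to a matrix estimated from 5000 peaks. Sequences were read from the mm10 reference. Peak midpoints were assigned to bins. For each gene, up to 3 partner bins called most widely and up to 2 FB-only bins (at least 3 FB stages) were named, up to 6 genes past the threshold per other list, and the 2 most similar genes; a few items that this rule would name are not reported here. The genes and lists were chosen with earlier results of these data known. Replicates are separate samples per the labels. Replicate numbers did not pair the libraries: the correlation of deviations between same-numbered libraries was −0.0654 to 0.0443 at E12.5 and −0.0418 to 0.0837 in FB.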

Additional observations from a re-analysis of the deposited data

Results flagged for a closer look

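The scaled number of interactions of a gene was searched in 40 groups of libraries for a library far from the others by Dixon's test. For normally distributed values it marks about 1 group in 20 by chance. That rate does not hold here, because the groups share libraries and many numbers are 0. A group at 0 in all but 1 library is always marked. It marked 5. Among the 6 LM, CF and LV libraries, Tbr1 stood at 1.36 in CF replicate 2, which is 1 interaction, with 0 in the others. Bcl11b stood at 4.31 in CF replicate 1, from 3 interactions, with the next library at 1.36. Bcl11a stood at 95.35 in LV replicate 2, from 42 interactions, with the next at 58.62. Among the 6 MB, HB and NT libraries, Bcl11a stood at 60.07 in NT replicate 1, from 55 interactions, with the next at 36.85, and Fezf2 at 0.77 in HB replicate 1, from 1 interaction, with 0 in the others.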

How the results depend on the processing

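Of all genes tested, 995 had more and 820 fewer interactions in the neural tissues. These counts were 1675 and 309 without scaling and 610 higher and 334 lower in a fit of the 2 groups alone, and the lower genes were 511 with DESeq2 size factors, 439 with edgeR and 1301 with 1 bin added on each side. For FB against MB, HB and NT (43 higher, 105 lower) they were 14 and 408 without scaling and 25 and 54 without the filter, and the lower genes were 182 with DESeq2 size factors, 30 with edgeR and 158 with the added bins. For late against early FB (833 higher, 476 lower) they were 2757 and 54 without scaling, 496 and 241 in the 2-group fit, and 201 and 122 without P0, an alternative chosen after seeing the data. The higher genes were 545 with edgeR and 536 at the stricter FDR of 0.01%, and the lower ones 273 with DESeq2 size factors and 720 with the added bins. For distance (69 longer, 32 shorter) they were 123 and 56 with the mean distance and 24 and 11 without P0. Leaving out 1 library gave 836 to 1033 higher and 627 to 846 lower in the first comparison, 4 to 54 and 17 to 115 in the second, 409 to 905 and 263 to 480 in the third, and 47 to 100 longer and 22 to 51 shorter. Counts moved by over 1.5 times without either library of FB, MB or HB or NT replicate 2 in the second (lowest without FB replicate 2), without FB E13.5 replicate 2, FB E16.5 replicate 2 or either of FB P0 in the third (lowest without FB P0 replicate 1), and for shorter distance without FB E16.5 replicate 1. The replicate block gave 987 and 808, 37 and 90, 849 and 480, and 62 and 30. Under it the distance of Eomes passed (adjusted p = 0.0379).

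Some small differences turned sign. Bcl11a in the neural tissues was 0.23 without scaling. In FB against the other neural tissues, Cux2 was −0.38 without scaling, −0.47 at the stricter FDR and −0.40 with basic transcripts only, Zbtb18 was −0.018 without scaling, and leaving out 1 library moved Cux1 between −0.41 and 0.41 and Cux2 between −0.08 and 0.50. In late against early FB, Fezf2 was 0.45 without scaling and 0.039 without P0. Cux2 was 0.47 without scaling, 0.33 at the stricter FDR and 0.12 with basic transcripts, Zbtb18 was 0.61 without scaling, 0.026 with the added bins and 0.01 without P0, and Cux1 moved between −0.12 and 0.31. The cause was not tested. Tbr1, too low for the test at E12.5, was higher in the neural tissues by 0.93 (adjusted p = 0.0199) without the filter and by 1.24 (adjusted p = 0.00661) with the added bins, and at 0.88 (adjusted p = 0.0592) without liver. The call of Bcl11b in the neural tissues was lost without the filter and without liver. The pooled calls numbered 1501 at the stricter FDR. The share of TSS bins with CTCF, 77.6%, became 72.8% with the second peak list, 79.5% with all peaks and 80.4% with an overlap of 1 bp, and the partner share was 27.9% in the last pair of settings. The number of calls per library limits what can be told for Tbr1, Bcl11b and Fezf2, which had 0 to 5 interactions in many libraries outside FB.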
